A study of Arabidopsis thaliana with 17 samples.

Results

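The genes described here encode 47 proteins of the Arabidopsis thaliana spliceosome, chosen as a fixed list of loci from the 27655 genes in the tables: U1, U2, U5, Sm and LSm proteins, U2AF, PRP-type splicing factors and the MAC (MOS4-associated complex, the plant form of the PRP19 complex). The rule names loci by function and sets no threshold on a measured value, but the list was proposed with earlier results of these data known. All 47 passed the filter on low counts, which left 21282 genes to test. By role the list holds 4 U2AF subunits, 9 proteins of the U1 snRNP or associated with it, 3 of the U2 snRNP, 9 of the U4/U6.U5 tri-snRNP or joining with it, 5 Sm proteins, 3 LSm proteins, 7 MAC proteins, 6 factors of the later steps and 1 locus, AT1G54380, annotated only as a spliceosome-like protein.

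The spliceosome removes introns from nuclear pre-mRNA. The U1 snRNP pairs with the start of the intron, U2AF and the U2 snRNP mark its end and the branch point, and the tri-snRNP then joins. RNA helicases and the MAC turn the assembly into its active form, and further helicases release the spliced mRNA and take the complex apart. Sm and LSm proteins form rings around the small nuclear RNAs. Plants carry many of these proteins as duplicated genes.

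Poly(A) RNA of seedlings grown hydroponically for 14 days was sequenced in 17 libraries. OE-6 is a complementation line, the atdgcr14l-1 mutant with AtDGCR14L driven by the constitutive 35S promoter; atdgcr14l-1 is the mutant itself; Col-0 is the wild type. AtDGCR14L is related to human DGCR14, a protein found in the spliceosome, and the series asks how it bears on splicing and salt tolerance. Each line was sampled at 24 h and at 0 h of 200 mM NaCl. OE-6, atdgcr14l-1 and Col-0 had 3 libraries each at 24 h, OE-6 and atdgcr14l-1 had 3 each at 0 h, and Col-0 at 0 h had 2. One mutant allele and one complementation line were sampled. No unsalted 24 h libraries were analysed here, so the salt comparison also holds the passage of 24 h. The labels do not say whether replicates came from separate plants or cultures, and p-values measure only the spread between these samples.

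Libraries held 53058673 to 56464259 estimated counts. AtDGCR14L lay between 67.6 and 88.3 CPM (counts scaled to library size, by TMM) in OE-6, between 11.3 and 13.1 CPM in atdgcr14l-1 and between 72.2 and 78.8 CPM in Col-0 at 24 h, and between 43.2 and 50.5, 6.76 and 8.52, and 55.7 and 59.9 CPM in the same lines at 0 h. The mean Spearman correlation of a library with the others of its group was lowest in OE-6 at 24 h (0.9736 for replicate 2) and, among the mutant libraries at 24 h, in replicate 3 (0.9798), against at least 0.9926 in every group at 0 h and in Col-0 at 24 h. Summed levels of 4 leaf markers were 13404 to 19747 CPM at 24 h, against 26479 to 32705 CPM at 0 h. The 4 root markers summed to 3.63 to 17.9 CPM and came almost wholly from GL2. Each of the others was at most 0.389 CPM in any library, and EXP7 was at most 0.0355 CPM. The 4 floral markers summed to 1.07 to 39.4 CPM in OE-6 at 24 h and 11.7 to 26.0 CPM at 0 h, against 0.726 to 7.7 CPM in all libraries of the other lines, and seed storage markers were at most 0.382 CPM. In RNA of mixed cell types, fewer cells of a type and less RNA per cell cannot be told apart.

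Promoter sequences are shown for 5 members whose levels the results turn on: PRP40A, PRP40B, ESP3 and PRP4KA, which differed between the lines, and U2AF65A, which fell with salt. Each is the 250 bases before the annotated gene start in RefSeq's TAIR10.1 annotation, read along the gene's strand, matched by locus. Capitals mark matches on either strand to TGGGCC or TGGGCT (site II), CACGTG (G-box), AAACCCTA (telo box) or AAAATATCT (evening element). The windows lie at chr1:16975354-16975603, plus strand (PRP40A), chr3:6837506-6837755, minus strand (PRP40B), chr1:11749789-11750038, minus strand (ESP3), chr3:9457555-9457804, minus strand (PRP4KA) and chr4:17297762-17298011, minus strand (U2AF65A).
PRP40A: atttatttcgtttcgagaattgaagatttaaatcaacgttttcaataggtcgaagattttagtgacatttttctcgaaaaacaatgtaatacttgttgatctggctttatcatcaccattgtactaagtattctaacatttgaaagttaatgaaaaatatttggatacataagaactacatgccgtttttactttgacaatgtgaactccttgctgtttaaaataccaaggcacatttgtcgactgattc
PRP40B: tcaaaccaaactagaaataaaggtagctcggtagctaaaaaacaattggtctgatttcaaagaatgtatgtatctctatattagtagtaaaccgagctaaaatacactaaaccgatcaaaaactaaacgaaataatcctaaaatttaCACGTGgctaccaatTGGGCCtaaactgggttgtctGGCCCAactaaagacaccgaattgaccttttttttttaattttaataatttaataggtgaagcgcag
ESP3: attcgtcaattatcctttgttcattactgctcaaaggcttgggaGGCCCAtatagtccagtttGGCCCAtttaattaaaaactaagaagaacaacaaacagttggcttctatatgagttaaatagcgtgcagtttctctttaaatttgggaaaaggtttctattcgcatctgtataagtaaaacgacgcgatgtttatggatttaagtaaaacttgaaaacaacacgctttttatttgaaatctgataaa
PRP4KA: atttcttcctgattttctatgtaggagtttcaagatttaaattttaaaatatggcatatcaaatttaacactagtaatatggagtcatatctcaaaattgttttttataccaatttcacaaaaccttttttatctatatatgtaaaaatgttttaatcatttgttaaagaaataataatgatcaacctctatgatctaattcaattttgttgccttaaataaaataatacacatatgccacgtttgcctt
U2AF65A: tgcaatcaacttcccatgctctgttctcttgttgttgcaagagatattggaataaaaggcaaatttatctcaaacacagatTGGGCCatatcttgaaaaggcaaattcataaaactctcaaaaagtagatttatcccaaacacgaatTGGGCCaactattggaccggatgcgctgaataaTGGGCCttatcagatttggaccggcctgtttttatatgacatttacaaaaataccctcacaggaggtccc
None of the searched motifs was in the windows of PRP40A and PRP4KA. PRP40B held 2 site II matches and a G-box, ESP3 held 2 site II matches and U2AF65A held 3. Over the list, 24 of 47 promoters (51.1%) held a site II match. The share was 19.2% of 27444 promoters of the same length, those of nuclear genes in the tables. These include genes too low to test, while every member was tested, and the share among tested genes was not computed. Matches stood in 5 of 6 late factors, 4 of 5 Sm genes, 5 of 9 tri-snRNP genes, 3 of 7 MAC genes, 3 of 9 U1 genes and 0 of 3 LSm genes. The other motifs were rarer: the telo box stood in 3 member promoters (6.38%, against 4.49% of all), the G-box in 2 (4.26%, against 6.49%) and the evening element in 2 (4.26%, against 2.36%). Site II matches were in 11 of the 18 members that fell with salt in at least 1 line, in 2 of the 5 that rose and in 11 of the 24 called in no line. A match is a description of these letters only, and motifs were counted separately whether or not they overlapped.

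The members' own gene structures were intron-rich. Their transcripts held a median of 7 exons, against 5 over the 21146 tested genes with a gene model. STIPL1, whose human counterpart takes part in disassembly of the spliceosome, was the only member with a single exon (2.13% of members, against 14.6% of tested genes). PRP40B had 29 exons, PRP40A 28 and ESP3 28. Of the 432 distinct introns of the members, 425 began and ended with GT and AG and 7 with GC and AG. A start sequence of the minor, U12-type class was found in 2 introns, those of LUC7A and LUC7B.

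Per kilobase of exon, the most abundant members were MAC3B, a ubiquitin ligase at the centre of the MAC, at 60.8 CPM per kb, and U2AF65A, the large U2AF subunit that binds the pyrimidine tract, at 60.7 CPM per kb (each the mean of the 6 group means). SMD3B, a ring protein, followed at 44.4 CPM per kb, then SKIP of the MAC at 42.4 and U1-70K, which binds U1 RNA, at 41.9. Median levels per length were similar in U2AF (36.5 CPM per kb), MAC (36.0), Sm (35.5), LSm (33.2) and U2 genes (32.9). They were lower in U1 (16.9), tri-snRNP (16.5) and late genes (15.1). Exon length was merged over all annotated transcripts of a gene, which can count an intron of 1 transcript as exon. For STA1 the 4534 bases were the whole gene span, though 2 introns are annotated. Ranks by level per length carry this limit. STIPL1 was lowest at 5.52 CPM per kb, followed by ILP1, also linked to disassembly, at 6.78. Group means of a member differed little: the ratio of the highest group to the lowest ran from 1.05 for SMU1 to 2.27 for PRP4KA.

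**Figure D1:**
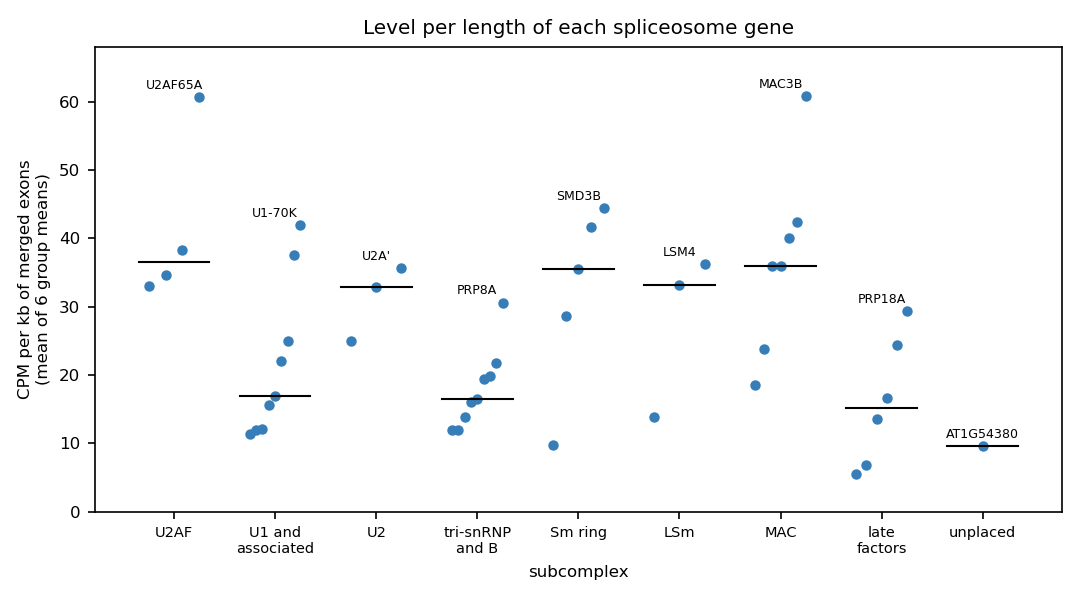
Level per length of each of the 47 spliceosome genes, by subcomplex. The vertical axis gives CPM per kb of merged exons (mean of 6 group means), each point is a gene, the black line is the median of the subcomplex and the highest gene is named; U2AF65A and MAC3B stand at about 60.7 and 60.8 CPM per kb.

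At 24 h of salt, the members moved in small steps, and more fell than rose. Calls rest on edgeR's quasi-likelihood test over all 21282 genes, with p adjusted by the Benjamini-Hochberg method and a threshold of 0.05. In OE-6, 4 members rose and 12 fell (34.0% called, against 55.3% of all tested genes). In atdgcr14l-1, 4 rose and 14 fell (38.3%, against 58.0%). In Col-0, 2 rose and 11 fell (27.7%, against 46.8%). The 3 backgrounds by direction were 29.5% higher and 25.7% lower in OE-6, 31.3% and 26.7% in atdgcr14l-1, and 25.4% and 21.4% in Col-0. No member changed 2-fold or more in any line, against 23.9% of tested genes in OE-6, 26.3% in atdgcr14l-1 and 22.7% in Col-0. The median size of the members' log2 change was 0.17 in OE-6, 0.17 in atdgcr14l-1 and 0.19 in Col-0, against 0.47, 0.50 and 0.43 over all tested genes. Members also varied less between replicates. At 24 h their median coefficient of variation was 7.53% in OE-6, 8.5% in atdgcr14l-1 and 7.42% in Col-0. Over all tested genes it was 15.3%, 14.5% and 9.34%. At 0 h the gap was smaller, with 6.62%, 4.12% and 5.45% for members in the same lines, against 8.48%, 6.49% and 6.69%. Every member had at least 341 counts in each library, and the members were not compared with genes of like level. The part of spread and of level in the gap in change size was not tested. Leaf marker levels fell in the same salt comparisons, and their part in the members' changes was not tested.

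Across the lines, 7 members were called lower in all 3 (U2AF65A, U2AF65B, RBM25, CLO, PRP31, CDC5 and AT1G54380) and 2 were called higher in all 3 (LUC7A and U2B''). These are 14.9% and 4.26% of the members, against 17.5% and 21.3% of all tested genes. PRP40A, RDM16, SMD3B, U1A and U2A' were called lower in 2 lines, and BRR2A, LSM5, MAC3A, MAC3B, PRP39A and SMD3A in 1. SMP1 was called higher in 2 lines, and PRP40B and PRP4KA in 1. The sign of the change was the same in all 3 lines for 34 of 47 members (72.3%, against 80.3% of all tested genes). The remaining 24 members, called in no line (51.1%, against 30.8%), had log2 changes between -0.29 and 0.26. Among them were PRP8A, a core protein of the spliceosome, U1-70K, U1C, SF3B155, SMD1A, SMD1B and SME1.

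**Figure D2:**
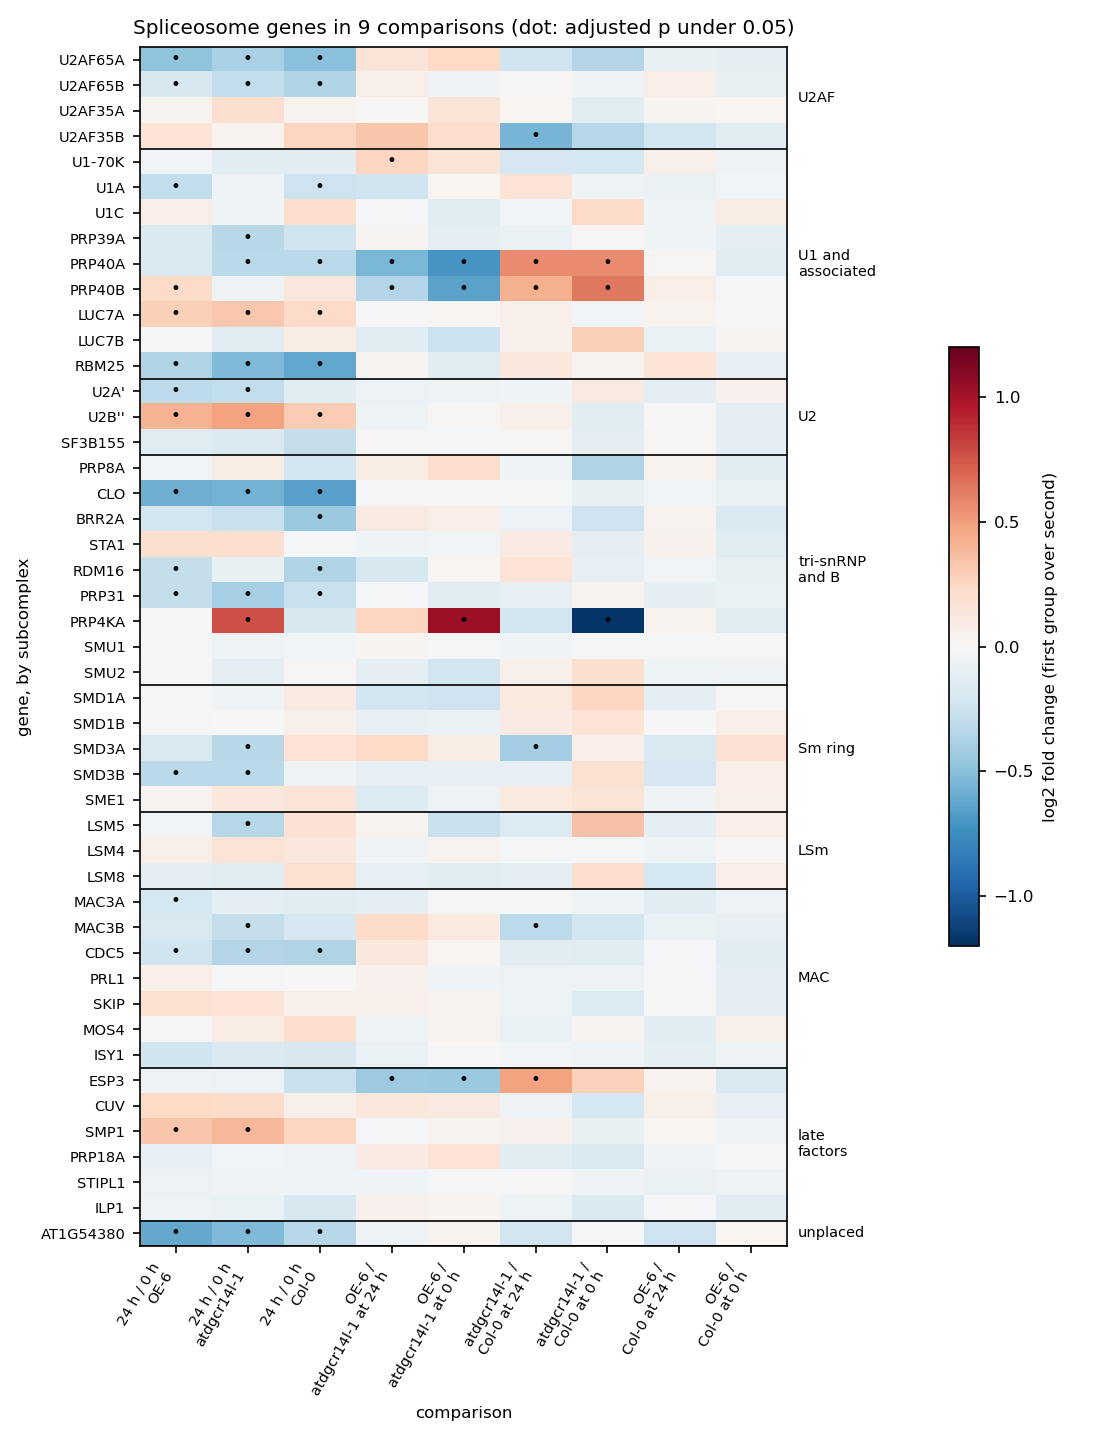
Log2 fold change of each spliceosome gene (rows, by subcomplex) in 9 comparisons (columns, first-named group over second). A dot marks an adjusted p under 0.05 in edgeR; blue rows run through U2AF65A, CLO and RBM25 in the 3 salt columns, and PRP40A, PRP40B and ESP3 are red where the mutant is on top and blue where it is the group underneath.

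U2AF recognises the end of the intron. U2AF65A (AT4G36690), its large subunit, had 119, 127 and 119 CPM at 24 h, against 161, 180.0 and 166 CPM at 0 h in OE-6. In atdgcr14l-1 it had 103, 105 and 121 CPM at 24 h, against 141, 148 and 141 CPM at 0 h, and in Col-0 114, 138 and 136 CPM at 24 h, against 190.0 and 175 CPM at 0 h. Every 24 h library lay below every 0 h library of its line. It fell by 0.48 ± 0.09 on the log2 scale in OE-6 (SE; adjusted p = 0.000466 in edgeR), by 0.39 ± 0.09 in atdgcr14l-1 (0.00198) and by 0.50 ± 0.10 in Col-0 (0.000976). U2AF65B (AT1G60900), its close copy, had 75.7, 77.9 and 75.4 CPM at 24 h, against 84.9, 92.1 and 84.3 CPM at 0 h in OE-6. Its values were 70.1, 73.5 and 74.9 CPM at 24 h, against 86.9, 91.9 and 89.6 CPM at 0 h in atdgcr14l-1, and 67.6, 75.6 and 73.3 CPM at 24 h, against 95.2 and 89.6 CPM at 0 h in Col-0. Its times did not overlap either, and it fell by 0.19 ± 0.07 in OE-6 (adjusted p = 0.0254), by 0.30 ± 0.07 in atdgcr14l-1 (0.00155) and by 0.36 ± 0.07 in Col-0 (0.00123). The OE-6 call of U2AF65B was lost without OE-6 0 h replicate 2 (adjusted p = 0.108), 24 h replicate 1 (0.0575) or 24 h replicate 3 (0.0627), and in a model of only the OE-6 groups (0.0784). The small subunits, U2AF35A and U2AF35B, which contact the last bases of the intron, were called in no line.

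Of the 9 U1 genes, RBM25 had the largest fall. RBM25 (AT1G60200), a U1-associated regulator of splice site choice in human cells, had 78.3, 81.6 and 76.2 CPM at 24 h, against 92.0, 117 and 93.6 CPM at 0 h in OE-6. It had 71.9, 83.7 and 75.2 CPM at 24 h, against 106, 115 and 112 CPM at 0 h in atdgcr14l-1, and 64.1, 75.2 and 72.1 CPM at 24 h, against 114 and 103 CPM at 0 h in Col-0. The times were apart in each line, with falls of 0.36 ± 0.10 in OE-6 (adjusted p = 0.00688 in edgeR), 0.53 ± 0.10 in atdgcr14l-1 (0.00035) and 0.62 ± 0.11 in Col-0 (0.000347) on the log2 scale. LUC7A (AT3G03340), a U1 protein that steadies pairing with the intron start in yeast, moved the other way. It had 34.6, 34.2 and 39.1 CPM at 24 h, against 31.2, 29.2 and 28.0 CPM at 0 h in OE-6. In atdgcr14l-1 it had 36.6, 36.8 and 36.1 CPM at 24 h, against 29.7, 29.2 and 28.6 CPM at 0 h, and in Col-0 36.2, 35.6 and 32.9 CPM at 24 h, against 27.9 and 31.5 CPM at 0 h. Again the times did not overlap, with rises of 0.29 ± 0.08 in OE-6 (adjusted p = 0.00484), 0.32 ± 0.08 in atdgcr14l-1 (0.00181) and 0.23 ± 0.08 in Col-0 (0.034). In Col-0 the LUC7A call ended without 0 h replicate 1 (0.307), 24 h replicate 1 (0.0963) or 24 h replicate 2 (0.0796), and in a model of only the Col-0 groups (0.0603). U1A, which binds a U1 RNA stem-loop, fell by 0.30 ± 0.08 in OE-6 and by 0.25 ± 0.09 in Col-0, where 6 single libraries each ended the call when left out, at adjusted p between 0.0503 and 0.308 (highest without Col-0 0 h replicate 2). PRP39A was called lower in atdgcr14l-1 alone, at -0.33 ± 0.10 (adjusted p = 0.00861), and the difference between the lines in this response was not called.

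Of the 3 U2 genes, U2B'' (AT2G30260), which binds U2 RNA, rose. It had 47, 41.6 and 51.8 CPM at 24 h, against 35.3, 35.7 and 33.9 CPM at 0 h in OE-6. It had 52.3, 49.2 and 44.6 CPM at 24 h, against 34.6, 34.0 and 35.9 CPM at 0 h in atdgcr14l-1, and 52.9, 45.7 and 42.0 CPM at 24 h, against 38.5 and 37.8 CPM at 0 h in Col-0. All 24 h libraries were above all 0 h libraries. The log2 rise was 0.42 ± 0.10 in OE-6 (adjusted p = 0.00173 in edgeR), 0.48 ± 0.10 in atdgcr14l-1 (0.000527) and 0.30 ± 0.11 in Col-0 (0.0336). The Col-0 call was lost without 0 h replicate 1 (0.111), 0 h replicate 2 (0.146) or 24 h replicate 1 (0.144). U2A', the partner of U2B'' on U2 RNA, went the other way, at -0.31 ± 0.10 in OE-6 (0.0223) and -0.30 ± 0.10 in atdgcr14l-1 (0.023), and had -0.14 in Col-0. The OE-6 call of U2A' was lost without 0 h replicate 1 (0.0681) or 24 h replicate 2 (0.103), and in a model of only the OE-6 groups (0.0744). The atdgcr14l-1 call was lost without 0 h replicate 1 (0.0621), 0 h replicate 3 (0.0599), 24 h replicate 1 (0.0578) or 24 h replicate 3 (0.082). SF3B155, the branch-point subunit of SF3b, was not called (-0.29 in Col-0, adjusted p = 0.054).

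Among tri-snRNP genes the clearest fall was that of CLO, the U5 GTPase that controls unwinding of the small nuclear RNAs. CLO (AT1G06220) had 60.4, 54.9 and 50.9 CPM at 24 h, against 85.6, 88.2 and 77.0 CPM at 0 h in OE-6. It had 52.4, 52.5 and 63.0 CPM at 24 h, against 81.0, 90.7 and 78.2 CPM at 0 h in atdgcr14l-1, and 51.2, 56.6 and 61.8 CPM at 24 h, against 89.1 and 88.2 CPM at 0 h in Col-0. The highest 24 h library, at 63.0 CPM, was below the lowest 0 h library, at 77.0 CPM, across the lines. The falls were 0.59 ± 0.10 in OE-6 (adjusted p = 0.000167 in edgeR), 0.57 ± 0.10 in atdgcr14l-1 (0.000192) and 0.65 ± 0.11 in Col-0 (0.000257) on the log2 scale. PRP31, which holds the U4/U6 particle together, fell by 0.29 ± 0.07 in OE-6, 0.40 ± 0.07 in atdgcr14l-1 and 0.27 ± 0.08 in Col-0. Its Col-0 call was lost without 0 h replicate 1 (0.0856) or replicate 2 (0.0578). RDM16, the PRP3 protein of the same particle, fell by 0.29 ± 0.09 in OE-6 and by 0.36 ± 0.10 in Col-0, which were lost without OE-6 0 h replicate 2 (0.0546) and without Col-0 0 h replicate 2 (0.0659). BRR2A, the helicase that unwinds U4 from U6, was called lower in Col-0 (-0.45 ± 0.15, adjusted p = 0.0229), and not without 0 h replicate 1 (0.176) or 24 h replicate 1 (0.081). SMU1 and SMU2, which act as activation begins, and STA1, the PRP6 protein that bridges U5 to U4/U6, were called in no line.

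In the rings, SMD3B was called lower with salt in OE-6 (-0.32 ± 0.13, adjusted p = 0.0487 in edgeR) and in atdgcr14l-1 (-0.32 ± 0.13, 0.0436), SMD3A in atdgcr14l-1 (-0.33 ± 0.10, 0.0125) and LSM5, of the LSm rings, in atdgcr14l-1 (-0.34 ± 0.13, 0.0331). The OE-6 call of SMD3B was lost when any of 13 single libraries was left out, at adjusted p up to 0.214 without OE-6 24 h replicate 2. That of atdgcr14l-1 was lost without any of 7, up to 0.122 without atdgcr14l-1 0 h replicate 3. SMD3A was lost without atdgcr14l-1 0 h replicate 3 (0.0519), and LSM5 was lost without any of 4, up to 0.112 without atdgcr14l-1 0 h replicate 1. The gene span of LSM5 overlaps that of AT5G48880 on the opposite strand by 160 bases; AT5G48880 had a median of 57.6 CPM over the libraries, against 17.3 CPM for LSM5 (mean of the 6 group means). The other Sm genes (SMD1A, SMD1B, SME1) and LSm genes (LSM4, LSM8) were called in no line.

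CDC5 (AT1G09770), a Myb-like core protein of the MAC, had 104, 100 and 112 CPM at 24 h, against 117, 132 and 124 CPM at 0 h in OE-6. It had 92.2, 91.3 and 104 CPM at 24 h, against 119, 125 and 123 CPM at 0 h in atdgcr14l-1, and 100, 110.0 and 107 CPM at 24 h, against 142 and 129 CPM at 0 h in Col-0. The times were apart in each line. It fell by 0.24 ± 0.08 in OE-6 (adjusted p = 0.0199 in edgeR), 0.35 ± 0.08 in atdgcr14l-1 (0.00167) and 0.36 ± 0.09 in Col-0 (0.00437) on the log2 scale. Its OE-6 call was lost without 0 h replicate 2 (0.0857) or 24 h replicate 2 (0.0624) and in a model of only the OE-6 groups (0.0653), and its Col-0 call without 0 h replicate 1 (0.0681). CDC5 overlaps AT1G09780 (median 114 CPM) on the opposite strand by 247 bases. Among other members called with salt, LUC7A, U2A', BRR2A and RDM16 overlap a neighbour by 5 to 61 bases. MAC3A, the ubiquitin ligase copy of MAC3B, was called lower in OE-6 (-0.21 ± 0.08, 0.0325), and that call was lost without 0 h replicate 1 (0.142), 0 h replicate 2 (0.0593), 24 h replicate 2 (0.107) or 24 h replicate 3 (0.082) and with only the OE-6 groups in the model (0.121). MAC3B was called lower in atdgcr14l-1 (-0.29 ± 0.10, 0.0185), and not without 0 h replicate 1 (0.0517), 24 h replicate 1 (0.0742) or 24 h replicate 3 (0.0701). PRL1, SKIP, MOS4 and ISY1 of the same complex were called in no line.

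Of the late factors, SMP1, the SLU7 protein of the second splicing step, rose by 0.33 ± 0.09 in OE-6 (adjusted p = 0.00606 in edgeR) and by 0.40 ± 0.09 in atdgcr14l-1 (0.00166), and had 0.26 in Col-0 (0.051). ESP3, CUV, PRP18A, STIPL1 and ILP1 were called in no line. AT1G54380 had 16.4, 15.0 and 15.9 CPM at 24 h, against 21.9, 24.6 and 25.8 CPM at 0 h in OE-6. It had 15.7, 15.4 and 17.6 CPM at 24 h, against 22.7, 24.5 and 23.0 CPM at 0 h in atdgcr14l-1, and 18.8, 20.2 and 17.5 CPM at 24 h, against 24.2 and 23.4 CPM at 0 h in Col-0. Its times did not overlap, and it fell by 0.61 ± 0.08 in OE-6 (2.68e-05), 0.53 ± 0.08 in atdgcr14l-1 (7.77e-05) and 0.34 ± 0.09 in Col-0 (0.00779), the last of which was lost without Col-0 0 h replicate 1 (0.0585).

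**Figure D3:**
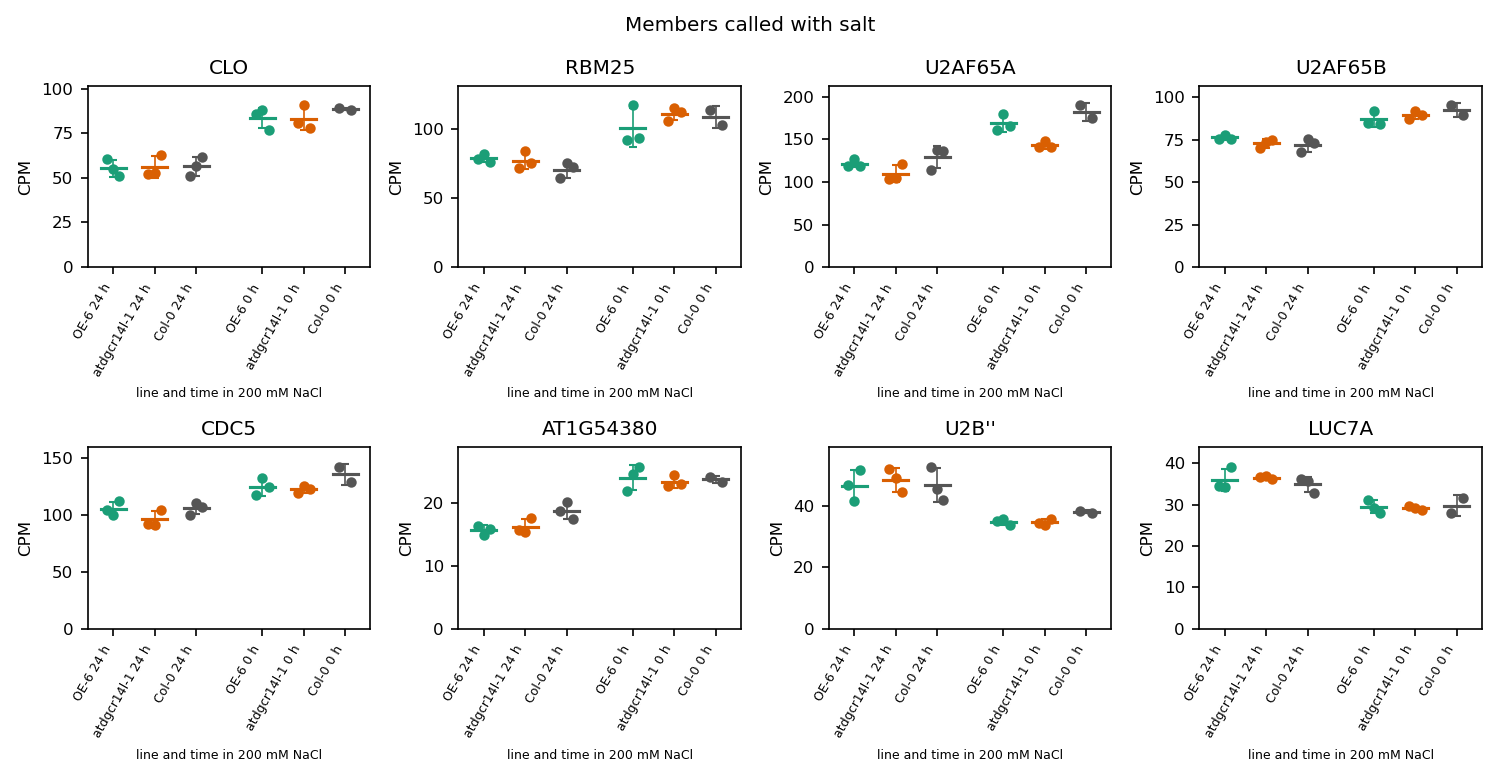
Levels in CPM of 8 members called with salt, 1 point per library, with the mean (line) and SD (bar) of each group. In every panel the 24 h groups stand left of the 0 h groups; CLO, RBM25, U2AF65A, U2AF65B, CDC5 and AT1G54380 are lower at 24 h, and U2B'' and LUC7A are higher.

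Between the lines, few members differed, and the U1-associated PRP40A and PRP40B were called in both comparisons that involve the mutant, at both times. PRP40 links the U1 snRNP to the branch-point protein in yeast, and the plant proteins bind the tail of RNA polymerase II. In OE-6 against atdgcr14l-1 at 24 h, 1 member was higher (background 5.17% of all tested genes) and 3 lower (background 6.79%), or 8.51% of members (2546 of the 21282 tested genes were called either way). At 0 h, 1 was higher (background 1.48%) and 3 lower (background 3.09%), or 8.51% against 4.57%. In atdgcr14l-1 against Col-0 at 24 h, 3 were higher (background 7.71%) and 3 lower (background 4.67%), or 12.8% against 12.4%. At 0 h, 2 were higher (background 1.45%) and 1 lower (background 0.573%), or 6.38% against 2.03%. In OE-6 against Col-0, 0 members were called at 0 h (background 0.0141%) and 0 at 24 h (0.00470%). There, 0 and 1 members had an unadjusted p under 0.05 in edgeR, and DESeq2 also called 0 at either time. The 2 comparisons with the mutant share the atdgcr14l-1 libraries, so a shift in those libraries appears in both with opposite sign. In all, 8 members were called between lines, and the other 39 had log2 differences between -0.36 and 0.35.

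PRP40A (AT1G44910) had 30.4, 29.0 and 28.0 CPM in OE-6, 40.0, 50.7 and 37.6 CPM in atdgcr14l-1 and 26.9, 30.0 and 29.6 CPM in Col-0 at 24 h. At 0 h it had 30.8, 34.9 and 32.4 CPM in OE-6, 53.2, 54.8 and 51.9 CPM in atdgcr14l-1 and 36.4 and 35.6 CPM in Col-0. Every mutant library lay above every library of the other lines at the same time. It was higher in atdgcr14l-1 than in Col-0 by 0.57 ± 0.10 on the log2 scale at 24 h (adjusted p = 0.0026 in edgeR) and by 0.57 ± 0.11 at 0 h (0.0134), and OE-6 against atdgcr14l-1 gave -0.55 ± 0.10 at 24 h (0.00351) and -0.71 ± 0.10 at 0 h (0.000649). PRP40B (AT3G19670), its copy, had 42.0, 41.2 and 41.5 CPM in OE-6, 48.9, 61.5 and 48.0 CPM in atdgcr14l-1 and 35.7, 41.0 and 40.9 CPM in Col-0 at 24 h. Before salt the values were 34.4, 38.0 and 33.8 CPM in OE-6, 53.3, 57.1 and 55.2 CPM in atdgcr14l-1 and 36.8 and 34.4 CPM in Col-0. The mutant libraries were again the highest at each time. The mutant exceeded Col-0 by 0.43 ± 0.09 at 24 h (0.00959) and by 0.63 ± 0.11 at 0 h (0.00555), and OE-6 against atdgcr14l-1 gave -0.35 ± 0.09 at 24 h (0.0281) and -0.64 ± 0.09 at 0 h (0.00105). Against Col-0 at 0 h, PRP40A was no longer called once replicate 1 (0.143) or 2 (0.178) of Col-0 or replicate 2 of atdgcr14l-1 (0.056) was omitted, and PRP40B without Col-0 replicate 1 (0.0626) or 2 (0.115). At 24 h PRP40B was lost without Col-0 replicate 1 (0.0723) and with only the groups compared (0.0863). PRP40B in OE-6 against atdgcr14l-1 at 24 h was lost without OE-6 0 h replicate 1 (0.0607), atdgcr14l-1 24 h replicate 2 (0.0647), OE-6 24 h replicate 2 (0.0687) or replicate 3 (0.0608), and with no filter on low counts (0.0531). In a model of only those 2 groups, PRP40A (adjusted p = 0.226) and PRP40B (0.316) were not called there. PRP40A overlaps AT1G44920 on the opposite strand by 62 bases, and the strand used in counting is not given in the sources used here. AT1G44920 had a median of 97.2 CPM over the libraries, against 37.1 CPM for PRP40A (mean of the 6 group means). With salt, PRP40A was called lower in atdgcr14l-1 (-0.32 ± 0.10, 0.0111; without 24 h replicate 3, 0.0542) and in Col-0 (-0.32 ± 0.11, 0.0241; without 0 h replicate 1, 0 h replicate 2 or 24 h replicate 1, 0.113, 0.0835 and 0.0831), while PRP40B was called higher in OE-6 (0.23 ± 0.09, 0.0476), a call lost without any of 13 single libraries, at up to 0.144 without OE-6 0 h replicate 1, and also with no filter on low counts (0.0745).

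ESP3 (AT1G32490), a DEAH-box helicase of the PRP2 type that readies the spliceosome for the first reaction, had 46.2, 41.2 and 42.0 CPM in OE-6, 55.1, 63.1 and 57.4 CPM in atdgcr14l-1 and 37.2, 42.9 and 45.7 CPM in Col-0 at 24 h. The 0 h values were 42.7, 49.8 and 42.4 CPM in OE-6, 58.4, 66.4 and 59.3 CPM in atdgcr14l-1 and 52.2 and 48.6 CPM in Col-0. The mutant libraries were the highest at both times. The mutant exceeded Col-0 by 0.48 ± 0.10 at 24 h (adjusted p = 0.00596 in edgeR; 0.0507 in a model of only those groups), with 0.28 ± 0.11 at 0 h, which was not called (0.255). OE-6 against atdgcr14l-1 gave -0.44 ± 0.10 at 24 h (0.0103; 0.226 in a model of only those groups) and -0.45 ± 0.10 at 0 h (0.0131). The 0 h difference was lost without atdgcr14l-1 replicate 2 (0.0761), OE-6 replicate 1 (0.0744) or OE-6 replicate 3 (0.0701).

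PRP4KA (AT3G25840), a kinase that phosphorylates tri-snRNP proteins in human cells and fission yeast, was the only member with a difference of 2-fold or more. At 0 h it had 60.5, 75.5 and 64.8 CPM in OE-6, 32.2, 34.6 and 31.2 CPM in atdgcr14l-1 and 80.6 and 67.8 CPM in Col-0. The 3 mutant libraries held about the same level, with none above 34.6 CPM, and none of the other lines was below 60.5 CPM. The mutant against Col-0 gave -1.18 ± 0.13 on the log2 scale (adjusted p = 0.000252 in edgeR), and OE-6 against atdgcr14l-1 gave 1.03 ± 0.12 (0.000165). At 24 h it had 63.6, 74.1 and 62.6 CPM in OE-6, 48.6, 59.6 and 59.0 CPM in atdgcr14l-1 and 56.6, 68.7 and 69.0 CPM in Col-0. The mutant libraries then overlapped those of Col-0 (-0.22 ± 0.12, 0.234) and lay below those of OE-6 without a call (0.26 ± 0.12, 0.149). With salt it rose in atdgcr14l-1 (0.77 ± 0.12, 5.69e-05) and was called in neither OE-6 nor Col-0. The salt response of OE-6 minus that of atdgcr14l-1 was -0.77 ± 0.16 (adjusted p = 0.132 in edgeR and 0.00276 in DESeq2), and that of atdgcr14l-1 minus that of Col-0 was 0.97 ± 0.17 (0.128 and 0.000261). For these differences of response, edgeR called 0 members in each (backgrounds 0.00940% and 0.00470%), with 3 members in each at an unadjusted p under 0.05, and DESeq2 called 1 in each, PRP4KA. Floral marker levels were higher in OE-6 than in the other lines at 0 h, and their part in the OE-6 differences was not tested. The floral markers of atdgcr14l-1 (3.31 to 3.89 CPM) and Col-0 (3.31 to 4.44 CPM) at 0 h lay in the same range. Their part in the differences between these lines was not tested either.

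At 24 h, 3 members were lower in atdgcr14l-1 than in Col-0. U2AF35B (AT5G42820) had 106, 128 and 88.3 CPM in OE-6, 89.4, 89.6 and 77.0 CPM in atdgcr14l-1 and 131, 129 and 118 CPM in Col-0. At 0 h it had 103, 102 and 82.7 CPM in OE-6, 83.4, 80.2 and 85.6 CPM in atdgcr14l-1 and 110.0 and 100 CPM in Col-0. The mutant lay apart from Col-0 at both times and overlapped OE-6, with a difference from Col-0 of -0.56 ± 0.12 at 24 h (adjusted p = 0.0106 in edgeR) and -0.34 ± 0.14 at 0 h (0.298). U2AF35B overlaps AT5G42810 by 177 bases and AT5G42825 by 981 bases, both on the opposite strand. These neighbours had medians of 18.0 and 0.0736 CPM over the libraries, against 100 CPM for U2AF35B (mean of the 6 group means). SMD3A (AT1G76300) had 22.0, 18.8 and 26.1 CPM in OE-6, 18.6, 19.3 and 18.7 CPM in atdgcr14l-1 and 26.2, 24.6 and 24.7 CPM in Col-0 at 24 h. The 0 h libraries held 26.6, 24.5 and 24.9 CPM in OE-6, 24.0, 22.2 and 25.2 CPM in atdgcr14l-1 and 20.6 and 24.5 CPM in Col-0. It was lower in the mutant than in Col-0 at 24 h (-0.42 ± 0.10, 0.0202) and had 0.08 ± 0.12 at 0 h (0.914), while the salt response of atdgcr14l-1 minus that of Col-0 was not called (-0.49 ± 0.16, 0.405). The 24 h call ended when replicate 1 (0.0505) or 2 (0.0549) of Col-0 or replicate 3 of the mutant at that time was omitted (0.0577). MAC3B (AT2G33340) had 127, 120.0 and 145 CPM in OE-6, 104, 127 and 103 CPM in atdgcr14l-1 and 126, 145 and 142 CPM in Col-0 at 24 h. At 0 h the values were 145, 156 and 142 CPM in OE-6, 138, 135 and 134 CPM in atdgcr14l-1 and 159 and 157 CPM in Col-0. The mutant and Col-0 overlapped at 24 h, and the call of -0.31 ± 0.10 (0.0495) was lost without any of 11 single libraries, at up to 0.171 without atdgcr14l-1 24 h replicate 3, and with only the groups compared (0.175). U1-70K (AT3G50670) had 116, 114 and 123 CPM in OE-6, 97.6, 99.6 and 97.3 CPM in atdgcr14l-1 and 104, 113 and 121 CPM in Col-0 at 24 h. The values at 0 h were 113, 126 and 120.0 CPM in OE-6, 106, 104 and 112 CPM in atdgcr14l-1 and 128 and 120.0 CPM in Col-0. The mutant was lowest at each time, and OE-6 against atdgcr14l-1 was called at 24 h (0.26 ± 0.08, 0.039), a call lost without any of 11 single libraries, at up to 0.103 without OE-6 24 h replicate 3, and with only those groups (0.313).

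**Figure D4:**
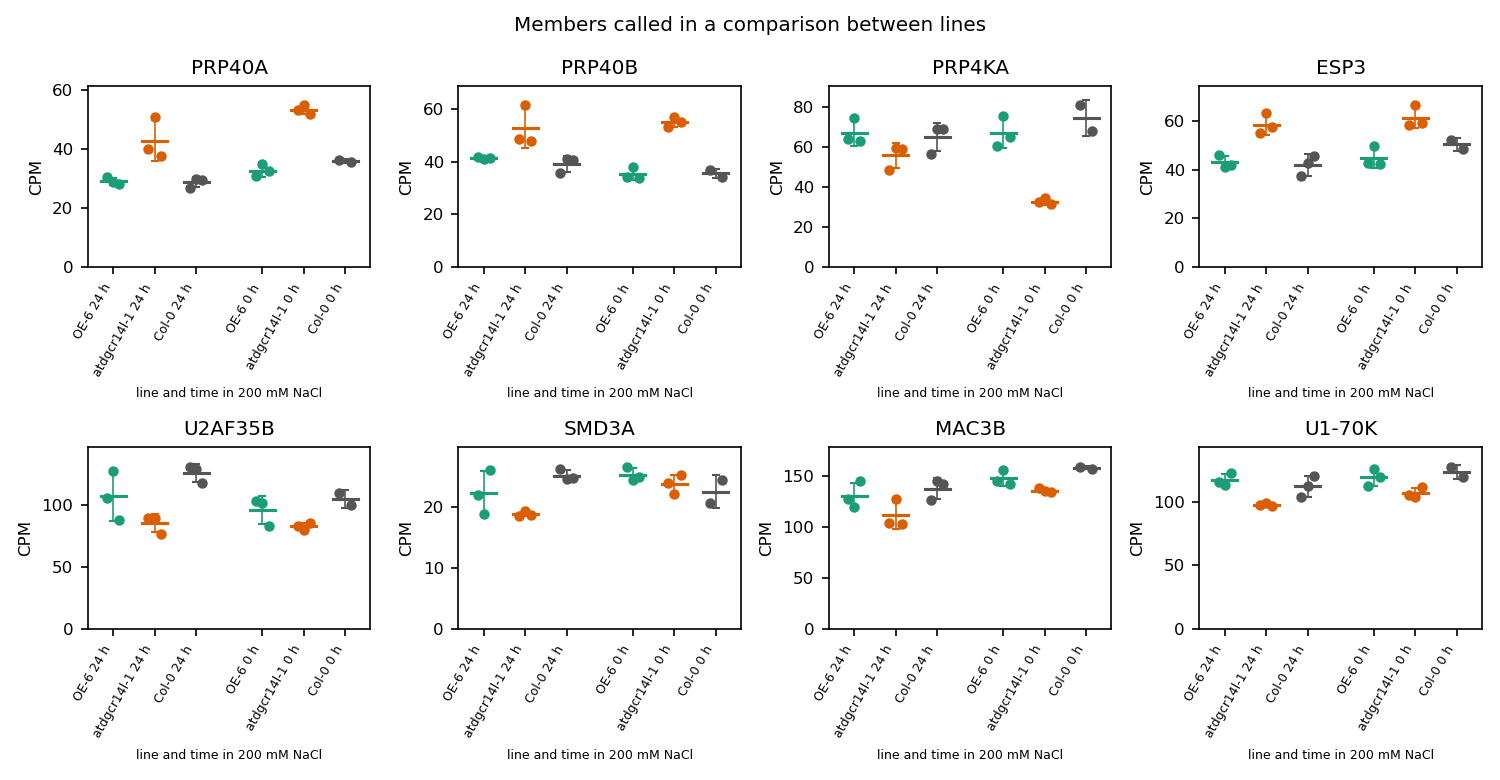
Levels in CPM of the 8 members called in a comparison between lines, 1 point per library, with the mean (line) and SD (bar) of each group. The mutant (orange) stands above OE-6 (green) and Col-0 (grey) for PRP40A, PRP40B and ESP3, and below them for PRP4KA at 0 h.

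Duplicated genes of 7 pairs were compared within each library as the log2 ratio of the counts of the first copy to the second (counts plus 0.5), which does not depend on library scaling. Salt was tested by relabelling the times within each line (exact permutation test, 2-sided, 4000 relabellings, smallest p 0.00025), with adjustment over 7 pairs. The ratio of PRP40A to PRP40B averaged -0.42 at 24 h and -0.06 at 0 h, a difference of -0.37 weighted over lines (adjusted p = 0.00175 in the exact permutation test). In OE-6 it was -0.46, -0.51 and -0.57 at 24 h, against -0.16, -0.12 and -0.06 at 0 h, in atdgcr14l-1 -0.29, -0.28 and -0.35, against 0.00, -0.06 and -0.09, and in Col-0 -0.41, -0.45 and -0.47, against -0.02 and 0.05. Every 24 h ratio was below every 0 h ratio. The ratio of U2AF65A to U2AF65B averaged 0.70 at 24 h and 0.86 at 0 h (difference -0.17, adjusted p = 0.00292), and that of LUC7A to LUC7B 0.22 and -0.10 (difference 0.30, 0.00292). Both kept their direction in all 3 lines. SMD3A to SMD3B averaged -0.79 at 24 h and -0.91 at 0 h (0.11, 0.0328), in the same direction in 2 of 3 lines. That call was lost without OE-6 0 h replicate 1 (0.0508) or 3 (0.0709), a single 24 h library of Col-0 (0.0642 each), atdgcr14l-1 24 h replicate 2 (0.0683) or 3 (0.0525), or OE-6 24 h replicate 2 (0.0604). The U2AF35, SmD1 and MAC3 pairs had adjusted p of 0.724, 0.898 and 0.418.

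For the mutant, lines were relabelled within each time (200 relabellings, smallest p 0.005). The ratio of U2AF65A to U2AF65B averaged 0.63 in atdgcr14l-1 and 0.90 in Col-0 (difference -0.28, adjusted p = 0.0117 in the exact permutation test). At 24 h it was 0.65, 0.70 and 0.66 in OE-6, 0.55, 0.51 and 0.69 in atdgcr14l-1 and 0.75, 0.87 and 0.90 in Col-0, and at 0 h 0.92, 0.97 and 0.97 in OE-6, 0.70, 0.68 and 0.65 in atdgcr14l-1 and 1.00 and 0.97 in Col-0. The mutant lay below Col-0 at both times. OE-6 lay above the mutant at 0 h, but at 24 h it lay below Col-0 and overlapped the mutant. OE-6 was not part of this test. U2AF35A to U2AF35B averaged -0.91 in atdgcr14l-1 and -1.32 in Col-0 (0.39, 0.0117), and SMD3A to SMD3B -1.01 and -0.78 (-0.21, 0.0117). MAC3A to MAC3B averaged -1.22 and -1.45 (0.23, 0.0262), a call lost without any 1 of the atdgcr14l-1 0 h libraries (0.0583 each), a single 24 h library of Col-0 (0.07 for replicate 1, 0.0875 for 2 and 3) or atdgcr14l-1 24 h replicate 3 (0.0525). OE-6 overlapped the mutant at both times for U2AF35 and MAC3. At 24 h, U2AF35 had -1.04, -1.69 and -0.72 in OE-6, against -0.97, -1.02 and -0.51 in atdgcr14l-1. MAC3 had -1.34, -1.44 and -1.66, against -1.09, -1.36 and -0.93. For SmD3, every OE-6 ratio lay above every mutant ratio. At 24 h these were -0.71, -0.56 and -0.74, against -1.12, -0.94 and -0.98. OE-6 was not tested for these pairs either. For PRP40 (0.03, 0.475), SmD1 (0.06, 0.475) and LUC7 (-0.15, 0.287) the ratio was not called: the 2 PRP40 copies were both higher in the mutant. The longest run of identical bases shared by transcripts of a pair was 17 to 50 bases, and reads that fit both copies could be split by the authors' counting.

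**Figure D5:**
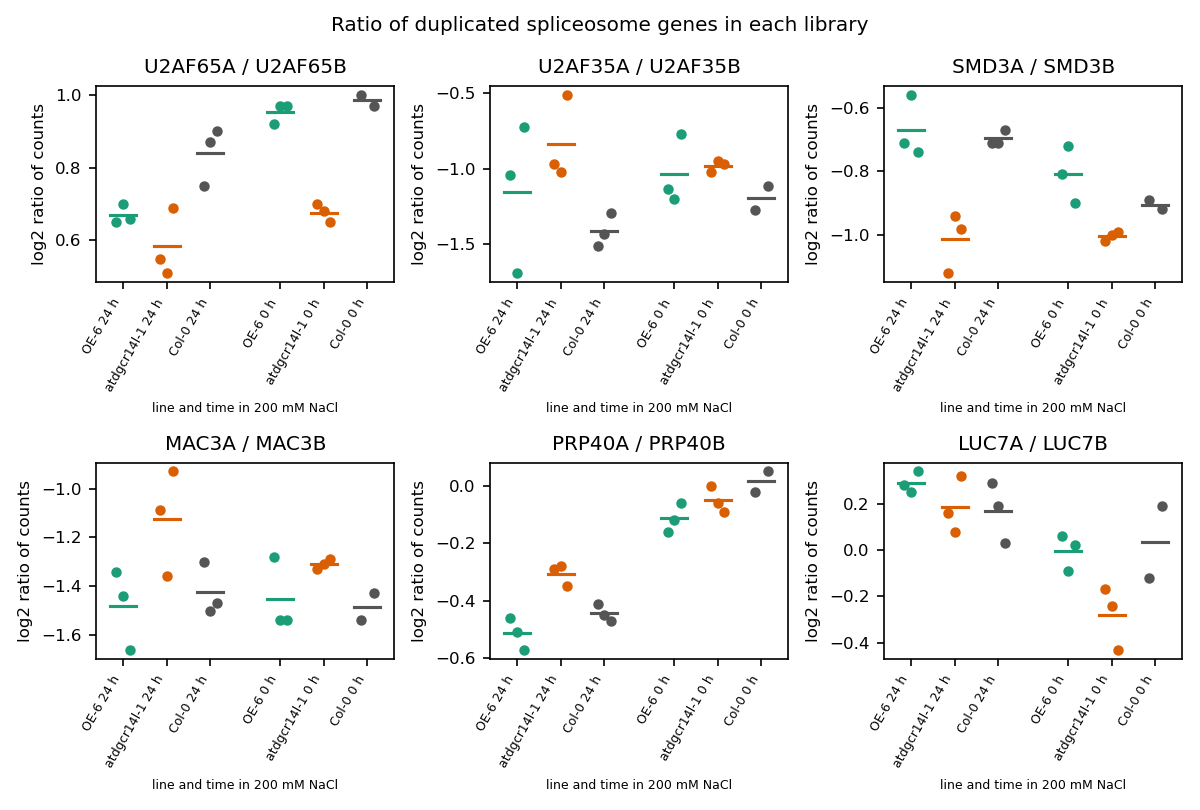
Log2 ratio of counts of the first copy to the second in each library, for 6 duplicated pairs. Points are libraries and lines are group means. PRP40A to PRP40B is lower at 24 h than at 0 h in each line. U2AF65A to U2AF65B is lower in atdgcr14l-1 than in Col-0 at both times, and at 24 h OE-6 is also below Col-0.

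A further 74 spliceosome genes, from a list of other subunits and factors, included 70 that were tested. With salt, 6 rose and 18 fell in OE-6, 7 rose and 17 fell in atdgcr14l-1, and 7 rose and 12 fell in Col-0. That is 34.3% called in OE-6 (against 55.3% of all tested genes), 34.3% in atdgcr14l-1 (against 58.0%) and 27.1% in Col-0 (against 46.8%). In Col-0 those with the smallest p that fell were PRP43-1, a helicase of spliceosome release (-0.59 ± 0.08, adjusted p = 4.3e-05 in edgeR), STIPL2 (-0.87 ± 0.17, 0.000828) and PRP43-2 (-0.55 ± 0.12, 0.00147). Those that rose were CYP18-2, a cyclophilin (0.65 ± 0.11, 0.000351), SF3B10-2, a small SF3b subunit (0.60 ± 0.12, 0.000997), and LSM3A (0.53 ± 0.14, 0.00544). Between lines, 3 were higher and 2 lower in atdgcr14l-1 than in Col-0 at 24 h (7.14%, against 12.4%), and 0 were called at 0 h. PRP40C, a further PRP40 gene, was among those higher and averaged 26.7 ± 1.70 CPM in OE-6, 37.6 ± 3.81 in atdgcr14l-1 and 26.0 ± 2.76 in Col-0 at 24 h (SD, n = 3 each). PRP40C was higher in the mutant by 0.53 ± 0.09 at 24 h (0.00264), with 0.42 ± 0.10 at 0 h, which was not called (0.052), and OE-6 against atdgcr14l-1 gave -0.49 ± 0.09 at 24 h (0.00466) and -0.49 ± 0.09 at 0 h (0.00554). CRNKL1-2 and PRP38 were lower in the mutant than in Col-0 at 24 h, at -0.39 ± 0.09 (0.0146) and -0.30 ± 0.08 (0.0222).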

How the data were processed

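Poly(A) RNA of seedlings was made into dUTP strand-marked libraries and sequenced on a DNBSEQ instrument, per the labels' protocols. Each library has 1 deposited table of estimated counts (expected counts) by gene, made by the authors and holding whole numbers. Per the submitters' processing notes the tools included StringTie 2.1.7, Bowtie2 2.4.5 and DESeq2 2.11.40.7. Row names carry an Araport11 tag; the genome build and the strand setting of the counting are otherwise not given in the sources used. The SEs and p-values come from the spread between libraries.

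The statistics were computed with edgeR 4.0.16 (R 4.3.3): genes kept by filterByExpr (21282 of 27655), TMM scaling, a robust quasi-likelihood model of all 6 groups (17 libraries) without a replicate block, 11 contrasts, and a Benjamini-Hochberg adjusted p under 0.05 over all tested genes. The common biological coefficient of variation was 19.5%. Levels are TMM-scaled CPM, and levels between genes are per kb of exon. Paralog ratios used counts plus 0.5 and exact permutation tests. Groups came from the labels. Over all groups, same-numbered libraries did not deviate together (median correlation 0.001, from -0.162 to 0.324), so numbers were not used as pairs. The file of the library labelled Col-0 0 h replicate 2 carries the number 3. Numbered so, the median was -0.008 (from -0.178 to 0.324). Between the 2 times of OE-6, same-numbered libraries had correlations of 0.324, 0.151 and 0.077, and the other pairs ran from -0.23 to 0.113. In atdgcr14l-1 the same-numbered values were -0.067, 0.072 and 0.017, and in Col-0, as labelled, -0.011 and 0.072. Sequences and gene models came from RefSeq's TAIR10.1, found by locus; protein sequences were not used here. Values in every library are given for members called between lines and for the largest called rise and fall with salt in Col-0 in each subcomplex. For pairs that passed, ratios in every library are printed for PRP40 and U2AF65, and averages or ranges for the others. The members and lists were chosen with earlier results of these data known. Alternatives were RLE scaling, other filters, organelle genes left out, DESeq2 1.42.0, a model of only the groups compared, the replicate block, a pseudocount of 5, each library left out in turn, and OE-6 24 h replicate 2 with atdgcr14l-1 24 h replicate 3 left out together. That pair was chosen from earlier results of these data. Their mean correlations (0.9736 and 0.9798) were the lowest of their groups by little. The other libraries had 0.9754 and 0.9784 in OE-6 and 0.9868 and 0.983 in atdgcr14l-1. Tables and figures were made in Python 3.11.15 with matplotlib 3.10.9, scipy 1.17.1, pandas 2.3.3 and numpy 2.4.6.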

Additional observations from a re-analysis of the deposited data

How the results depend on the processing

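No call of a member reversed under any alternative run: of 1664 repeats of the called values, 1518 kept their side of the threshold and 146 did not. The repeats include runs without a library from outside the groups compared, which bears on a contrast only through the shared model. The share kept is therefore not a measure of how stable the calls were. RLE scaling and DESeq2 lost 0 of these calls, no filter on low counts 2, a mean of at least 5 CPM 1, organelle genes left out 1, leaving out OE-6 24 h replicate 2 and atdgcr14l-1 24 h replicate 3 together 7, and a model of only the groups compared 14. With the replicate number as a block, 1 call was lost, MAC3B in atdgcr14l-1 against Col-0 at 24 h (-0.31, adjusted p = 0.0615). With the Col-0 0 h library labelled replicate 2 numbered 3 in the block, as in its file's name (chosen after seeing the data), 2 were lost, MAC3B (-0.31, 0.0537) and U1A with salt in Col-0 (-0.22, 0.0668), and OE-6 against atdgcr14l-1 at 24 h had 2 members higher. Whichever library was left out, 9 of 16 salt calls were kept in OE-6, 12 of 18 in atdgcr14l-1 and 4 of 13 in Col-0; between lines, 3 of 4 (0 h) and 2 of 4 (24 h) in OE-6 against atdgcr14l-1, and 1 of 3 (0 h) and 3 of 6 (24 h) in atdgcr14l-1 against Col-0. The cause of a lost call was not tested.

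Counts of members moved as follows. With 1 library left out, the salt count in Col-0 ran from 0 to 3 higher and 6 to 13 lower, and with both libraries named above left out it was 4 higher. Only the groups compared gave 7 lower with salt in OE-6. In atdgcr14l-1 against Col-0 at 0 h, leaving out 1 library gave 0 to 2 higher, only the groups compared gave 5 higher and 4 lower, and DESeq2 and the pair of libraries left out each gave 2 lower. At 24 h, only the groups compared gave 1 higher, a 5 CPM filter 6 lower, organelle genes left out 6 lower, DESeq2 5 lower and 1 library left out 1 to 4 lower. In OE-6 against atdgcr14l-1 at 0 h, only the groups compared gave 2 higher and 5 lower. At 24 h, 1 library left out gave 0 to 2 higher, the pair left out 0 higher, only the groups compared 0 higher and 0 lower, and the 5 CPM filter and DESeq2 2 higher each. For the differences of salt response, DESeq2 called 1 higher (atdgcr14l-1 minus Col-0) and 1 lower (OE-6 minus atdgcr14l-1). For paralog ratios with 1 library left out, the salt difference ran from -0.07 to 0.05 for SmD1, from -0.13 to 0.03 for U2AF35 and from 0.09 to 0.13 for SmD3 (0.09 with the pair of libraries left out, adjusted p = 0.103), and the difference of atdgcr14l-1 from Col-0 from -0.02 to 0.15 for SmD1 and from 0.18 to 0.29 for MAC3 (0.18 with the pair left out, adjusted p = 0.0525).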
